A study of Mus musculus with 6 samples.

Results

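S100 proteins are small calcium-binding proteins with a pair of EF-hand motifs, most of which act as dimers. On binding calcium, most of them expose a surface that docks onto partner proteins such as annexins, non-muscle myosin and p53, and several are also released from cells and bind surface receptors. In epithelia some members are among the most abundant mRNAs, whereas others are known mainly from neutrophils or from motile and mesenchymal cells. The 10 S100 genes described here (S100a1, S100a4, S100a6, S100a8, S100a9, S100a10, S100a11, S100a13, S100a14 and S100a16) were taken by name. All 10 had a value in both conditions, among 21959 genes in all.

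The RNA-seq compared primary colonic cell lines grown from adenomas of mice. PID+ cells carried CDX2P-NLS-Cre, a deleted Apc allele (APCΔ/+) and ROSA26-PID, a transgene for the Pak inhibitory domain that blocks Group I p21-activated kinases. PID- cells carried CDX2P-NLS-Cre and APCΔ/+ without the transgene, so the Cre driver and the loss of an Apc allele are shared by both. The Cre acts in intestinal epithelium and removes a stop cassette in front of the transgene. Each condition had 3 samples, with mouse numbers 4, 7 and 26 for PID+ and 1, 2 and 3 for PID-. In the labels PID- samples are named normal and untreated, although the methods describe tumor cells from both genotypes, and the labels give no age. The PID- mouse numbers are not those by which the paper calls its PID- cells, and the methods describe replicated sequencing runs where the labels name separate mice, so whether the samples are independent is not settled.

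The authors merged the reads of each condition, and the deposited table holds 1 pooled FPKM (fragments normalized for the length of the transcript and the size of the library) per gene and condition, with the bounds of a confidence interval. No difference has a replicate check, and the interval is the only error. Changes are given as log2 of the ratio of FPKM + 1 in PID+ to PID- cells, and this scale makes changes of weakly expressed genes look smaller than they are. Low values fall on steps, and the step of a single read was 1.38 times higher in PID+ cells. Depth and scaling both enter this step, so the depth itself is unknown.

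On the deposited scale the S100 mRNAs as a group were present at nearly the same summed level in both conditions, and the members differed from each other far more than the conditions did. Together the 10 genes held 5874 FPKM in PID+ and 5863 FPKM in PID- cells, or 1.003% and 1.08% of the total. Under equal Gapdh FPKM the sum in PID+ cells became 3808, and the median log2 change of the members went from -0.17 to -0.79. S100a6, S100a11 and S100a10 held 87.5% of the deposited sum in PID+ and 89.7% in PID- cells. S100a4 was the only member whose FPKM + 1 differed at least 3-fold, and it was lower in PID+ cells.

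Only genes that reach an FPKM of 2 in PID+ or PID- cells can differ 3-fold on this scale; these were 8 of the 10 members and 11035 genes overall. None of the 8 was at least 3-fold higher in PID+ cells, against 2.08% of these genes, and 1 was at least 3-fold lower, against 3.42%. The deposited intervals of the conditions overlapped for every member, while they were apart for 1.43% of these genes. A count of 1 gene does not set the family apart from the background. Of the 377 genes at least 3-fold lower, 236 reach an FPKM of 2 only through PID- cells, so their direction follows from the minimum. Each of the 8 members reaches that FPKM in both conditions. Over all 10 members 4 values were higher and 6 lower in PID+ cells (median log2 change -0.17), and the 8 members that reach the minimum had a median of -0.26 beside -0.01 for the 11035 genes.

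**Figure D1:**
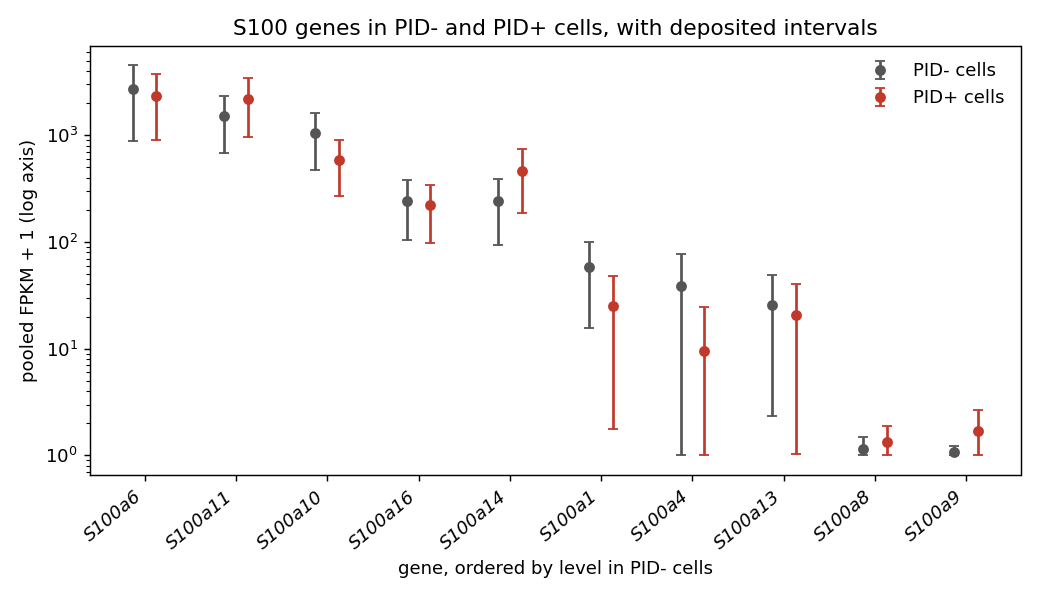
Pooled FPKM + 1 (log axis) of the 10 S100 genes in PID- cells (grey) and PID+ cells (red), ordered by the level in PID- cells; points are the deposited values and bars run between the bounds of the deposited intervals. The bars of both conditions overlap for each gene, and S100a4 shows the widest distance between points among the genes above an FPKM of 2.

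S100a6, also called calcyclin, is a widely expressed member that binds annexins and the calcyclin-binding protein. S100a6 (ENSMUSG00000001025.5, chromosome 3 of GRCm38 from 90612882 to 90624181) was measured at 2355 FPKM in PID+ (interval 913 to 3796) and 2706 FPKM in PID- cells (888 to 4525). It was the most abundant member in both conditions, at rank 21 of all genes in PID+ and rank 10 in PID- cells. Its log2 change was -0.20.

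S100a10 and S100a11 pair with annexins at membranes. S100a10, which has lost the ability to bind calcium and forms a complex with annexin A2, is annotated from 93555080 to 93564643 (ENSMUSG00000041959.11). Its FPKM was 581 in PID+ cells (267 to 894) and 1047 in PID- cells (470.3 to 1624), a log2 change of -0.85. S100a11 (ENSMUSG00000027907.4, 93520488 to 93526287), a partner of annexin A1, was measured at 2203 FPKM in PID+ (958 to 3448) and 1508 FPKM in PID- cells (686 to 2330.4), giving a log2 change of 0.55. These neighbours therefore had opposite signs, and the FPKM of S100a10 was 0.264 times that of S100a11 in PID+ and 0.694 times in PID- cells. The sign of S100a11 depends on the scaling: under equal Gapdh FPKM its log2 change became -0.08. That scaling moved the median of the 11035 genes from -0.01 to -0.58, and relative to this median S100a11 was at 0.50. The annotation lists a processed pseudogene, S100a11-ps, on chromosome 12 from 73961142 to 73961447; whether reads are shared with it was not tested.

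S100a14 and S100a16 are found in many epithelia. S100a14 (ENSMUSG00000042306.8, 90526856 to 90528837) was measured at 463 FPKM in PID+ (186 to 739.6) and 239.7 FPKM in PID- cells (93.1 to 386). Its log2 change was 0.95, the largest upward value among the 8 members that can reach 3-fold, and became 0.32 under equal Gapdh FPKM. S100a16 (ENSMUSG00000074457.7, 90537254 to 90543151) was measured at 220.2 FPKM in PID+ (97.1 to 343) and 242 FPKM in PID- cells (104 to 380.1), giving a log2 change of -0.14. The pair was level in PID- cells, where S100a14 had 0.991 times the FPKM of S100a16, and stood at a ratio of 2.10 in PID+ cells.

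S100a1, best known from muscle, and S100a13, which takes part in the release of Fgf1 and Il1a, were expressed at a lower level. S100a1 (ENSMUSG00000044080.9, 90511034 to 90514392) was measured at 23.9 FPKM in PID+ (0.782 to 47.1) and 57.1 FPKM in PID- cells (14.6 to 99.5), giving a log2 change of -1.22. Under equal Gapdh FPKM this became -1.81, past 3-fold. S100a13 (ENSMUSG00000042312.9, 90514435 to 90524581) was measured at 19.6 FPKM in PID+ (0.0351 to 39.2) and 24.7 FPKM in PID- cells (1.33 to 48.1), giving a log2 change of -0.32. The genes are transcribed away from each other from starts that lie close together, and the ratio of S100a1 to S100a13 was 1.22 in PID+ and 2.31 in PID- cells.

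S100a4 binds non-muscle myosin IIA and is known from fibroblasts and from motile tumor cells. S100a4 (ENSMUSG00000001020.8, 90603771 to 90606045) was measured at 8.62 FPKM in PID+ (0 to 23.9) and 37.7 FPKM in PID- cells (0 to 75.6). Its FPKM + 1 was 4.02-fold lower in PID+ cells, a log2 change of -2.01. Both intervals reach down to 0, so the level in either condition is poorly fixed. The annotation places Gm42674 (90601904 to 90605885) over S100a4 on the same strand, and reads can be split between them; Gm42674 was listed at 0.947 FPKM with and 0.46 FPKM without PID.

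Fibroblast markers moved with S100a4. None of 12 markers was higher and 11 were lower in PID+ cells, 5 of them at least 3-fold (of 7 that can reach it), with a median log2 change of -1.27. Of the 7, 4 reach an FPKM of 2 only through PID- cells, 3 of them among those 3-fold lower, so that their direction follows from the minimum and no share is compared. Together they held 26.7 FPKM with and 1043 FPKM without PID, most of it from Vim, the most abundant, with 19.1 and 997. The paper measured vimentin mRNA by PCR as a mesenchymal marker and reports its loss in PID+ cells. Col1a2 (0.0654 in PID+ and 11.9 in PID- cells), Col3a1 (0.339 and 6.35) and Col1a1 (2.32 and 11.9) were lower as well, Lum was listed at 0 in both conditions and Dcn at 0 in PID+ cells. The intervals of Vim and Col1a2 were apart. In pooled RNA, fewer cells of a type and less RNA per cell cannot be told apart, and the part of these genes in the value of S100a4 was not tested.

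S100a8 and S100a9 form calprotectin, the abundant calcium- and zinc-binding complex of neutrophils. Both had an FPKM below 1 in both conditions, and S100a9 in PID- cells lay below the floor of 3 reads. S100a8 (ENSMUSG00000056054.9, 90668978 to 90670035) was at 0.332 FPKM with and 0.142 FPKM without PID, about 7.08 and 4.18 estimated reads. S100a9 (ENSMUSG00000056071.9, 90692632 to 90695721) was at 0.707 FPKM with and 0.0652 FPKM without PID, about 16.1 and 2.05 estimated reads, and no fold is given since 3 reads or fewer lie behind the lower value. Every interval of the pair reached down to 0.

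Of 20 myeloid markers, 14 had an FPKM below 1 in both conditions, among them Ptprc, Itgam, Spi1, Lyz2, Tyrobp and Mpo, and Elane, Camp and Ngp were listed at 0. Together the markers held 226 FPKM with and 151 FPKM without PID, and the median log2 change was 0.00068, and -0.01 under equal Gapdh FPKM. Ltf was the most abundant by mean level (55.0 in PID+ and 82.03 in PID- cells), and Ly6g (109 and 15.5) was at least 3-fold higher in PID+ cells, 1 of the 5 markers that can reach 3-fold, beside 2.08% of the 11035 genes. Cd14 (29.1 and 28.6) and Cd68 (21.8 and 16.8) were expressed at similar levels in both conditions, and Ly6c2 (9.32 and 6.80) and Itgb2 (1.72 and 0.951) were less abundant. A list of 11 neutrophil genes shares 8 of them with the myeloid list and is no separate evidence; 8 of the 11 had an FPKM below 1 in both conditions, and the median log2 change was 0. The neutrophil gene Lcn2, which epithelia also make, reached 4.28 FPKM with and 79.3 FPKM without PID (log2 change -3.93) with intervals apart. The leukocyte marker Ptprc was at 0.0264 and 0.00811, and the part of leukocytes in the values of S100a8 and S100a9 was not tested.

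In the order of levels, many neighbours could not be separated within a condition. In PID- cells the order was S100a6, S100a11, S100a10, S100a16, S100a14, S100a1, S100a4, S100a13, S100a8 and S100a9. Intervals of adjacent genes were apart there only between S100a10 and S100a16 and between S100a13 and S100a8. In PID+ cells S100a14 stood before S100a16, S100a13 before S100a4 and S100a9 before S100a8, and adjacent intervals were apart only between S100a11 and S100a10 and between S100a16 and S100a1. The exchanged places all lie among neighbours whose intervals overlap in both conditions.

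The genes with levels most like those of the members at the extremes were found by distance over the 2 conditions on the log2(FPKM + 1) scale. Nearest to S100a14 were Cd44 (distance 0.09), Gsto1 (0.16) and Tpi1 (0.17). Nearest to S100a4 were Chst11 (0.02), Epb41l3 (0.05) and Vldlr (0.22). With 2 values per gene, such closeness says only that the levels are alike.

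Of the other S100 genes, S100a7a and S100a3 were the ones in the list above an FPKM of 1. Of 7 further family genes, 6 had a value, 5 of these were higher and none was lower in PID+ cells, and 4 had an FPKM below 1 in both conditions; the median log2 change was 0.17, and -0.01 under equal Gapdh FPKM. S100a7a, the mouse relative of human psoriasin, was measured at 30.1 FPKM in PID+ (8.79 to 51.4) and 8.89 FPKM in PID- cells (0 to 18.97). Its log2 change of 1.65 is past 3-fold, with overlapping intervals. In the list 1 of 2 genes that can reach 3-fold did so, beside 2.08% of the 11035 genes. S100a7a fell below 3-fold under equal total FPKM (1.55), with the chromosome median subtracted (1.40) and under equal Gapdh FPKM (1.05). S100a3 had an FPKM of 4.54 and 3.55 and overlaps Gm42674 and S100a2 in the annotation. S100a2, chosen after its values were seen, had 1.001 and 0.164. S100a7l2 was not analysed here. Of 7 S100 fused-type genes, which build the cornified envelope of skin, 6 had a value, with a median log2 change of 0.02, and Tchh (1.71 and 1.15) was the only one above an FPKM of 1.

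Annexins, the membrane-binding partners, had a sum, with Ahnak, of 4146 FPKM with and 4850 FPKM without PID. Of 13 genes in the list of annexins and Ahnak, 7 were higher and 6 lower in PID+ cells. The median log2 change was 0.14, and -0.48 under equal Gapdh FPKM. Of the 11 that can reach 3-fold, 1 was lower by at least that, beside 3.42% of the 11035 genes. The median of these 11 annexin and Ahnak genes was -0.08 on the deposited scale, so its sign depends on the genes counted. Anxa2, the partner of S100a10 and the most abundant by mean level, reached 1021 FPKM with and 1728 FPKM without PID (log2 change -0.76). The ratio of S100a10 to Anxa2 was 0.569 in PID+ and 0.606 in PID- cells, so both partners were lower in PID+ cells by a similar factor, with overlapping intervals. The ratio of S100a11 to Anxa1 was 1.999 in PID+ and 1.58 in PID- cells.

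Anxa6 was the annexin that passed 3-fold. It was measured at 38.8 FPKM in PID+ (15.5 to 62.1) and 219 FPKM in PID- cells (98.6 to 339), giving a log2 change of -2.46 with intervals apart. Anxa8 (43.6 and 109, log2 change -1.31) was lower and Anxa11 (46.9 and 26.6, log2 change 0.79) higher in PID+ cells, with overlapping intervals. Anxa1, Anxa2, Anxa8 and Anxa11 overlap other annotated genes, which makes their values less certain.

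The S100a10 and annexin A2 complex binds tissue plasminogen activator and plasminogen at the cell surface. Values of 5 genes of this system are given singly, with no count or median. Plat, the tissue activator and the most abundant of these by mean level, was at 126 FPKM with and 48.1 FPKM without PID (log2 change 1.37, and 0.75 under equal Gapdh FPKM). Plau, the urokinase activator, had 96.6 and 50.3 (log2 change 0.93), and its receptor Plaur had 71.2 and 40.4 (log2 change 0.80). For each of them the PID+ and PID- intervals overlapped. The plasminogen receptor Plgrkt was level, with 25.1 and 24.97, and Plg was listed at 0 in both conditions.

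Among 12 surface receptors for extracellular S100 proteins, 6 were higher and 5 lower in PID+ cells (median log2 change 0.13, and -0.30 under equal Gapdh FPKM). Emb, an immunoglobulin-family protein related to basigin, reached 0.0919 FPKM with and 22.1 FPKM without PID (log2 change -4.40) with intervals apart; it overlaps Gm17509. Alcam (7.26 and 1.67, log2 change 1.63) was higher with overlapping intervals. Of the 9 receptors that can reach 3-fold these were the ones that did, 1 lower and 1 higher, beside 3.42% and 2.08% of the 11035 genes. Each reaches an FPKM of 2 only in the condition where it is high, so that its direction follows from the minimum and nothing is read from the shares. Alcam falls below 3-fold under equal total or equal Gapdh FPKM, which multiply PID+ values by 0.931 and 0.648. Tlr4 (3.75 and 9.26, log2 change -1.11) and Mcam (7.46 and 3.53, log2 change 0.90) differed less. Bsg, the most abundant, had 429 and 356. Ager, the receptor for advanced glycation end products, had an FPKM below 1 in both conditions.

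Of 17 intracellular partners 12 can reach 3-fold and none did, beside 2.08% higher and 3.42% lower among the 11035 genes, so this count does not set the list apart. In that list 12 were higher and 5 lower in PID+ cells (median log2 change 0.06, and -0.27 under equal Gapdh FPKM). The non-muscle myosins Myh14 (81.4 and 29.4, log2 change 1.44) and Myh10 (7.88 and 2.49, log2 change 1.35) and the p53 regulator Mdm2 (161 and 75.5, log2 change 1.08) were higher in PID+ cells, and Il1a (9.39 and 15.5, log2 change -0.67) was lower. Myh9, the heavy chain that S100a4 binds, was chosen after its values were seen and had 265 and 205. Tpm1 was the most abundant of the list, with 391 and 564.

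EF-hand genes outside the family include calmodulins and reticulocalbins. Of 29 genes 12 were higher and 14 lower in PID+ cells (median log2 change 0, and -0.51 under equal Gapdh FPKM). Of the 20 that can reach 3-fold 1 was lower by that much, beside 3.42% of the 11035 genes. This was Rcn1, a calcium-binding protein of the endoplasmic reticulum, at 1.14 FPKM with and 17.2 FPKM without PID (log2 change -3.08) with intervals apart. It reaches an FPKM of 2 only through PID- cells, so that its direction follows from the minimum and nothing is read from the share. Hpcal4 (1.18 and 0.195), Rcn3 (0.497 and 1.69) and Efhd2 (21.7 and 35.3) followed in size, and Myl12a (584 and 498), which overlaps Myl12b in the annotation, was the most abundant.

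The labelled tissue was compared with epithelial markers. Of 15 epithelial markers 12 were higher and 2 lower in PID+ cells, beside 9001 higher and 8726 lower of 21959 genes. The markers had a median log2 change of 0.83, and 0.23 under equal Gapdh FPKM. On the deposited scale 13 can reach 3-fold. Of these Epcam and Cldn7 were higher by that much and Cdx2 lower, all with overlapping intervals, beside 2.08% and 3.42% of the 11035 genes. Krt19 was the most abundant marker by mean level, with an FPKM of 2469 and 2073. Krt18 (2843 and 1199), Epcam (401 and 124) and Cldn7 (274 and 79.4) were higher in PID+ cells. Krt20, a keratin of the intestinal lining, was at 158 and 73.5. Of the other intestinal genes in the list, Cdx1 was listed at 0 in both conditions and Vil1 had an FPKM below 1 in both. The 2 lower markers were Cdx2, with 0.542 in PID+ and 8.04 in PID- cells (log2 change -2.55), and Lgals4, with 1.86 and 3.43 (log2 change -0.63). Both reach an FPKM of 2 only through PID- cells, so that their direction follows from the minimum. All 9 lymphocyte markers were below 1 in both conditions, with a median log2 change of 0, as were 6 of 7 endothelial markers, with a median of 0.01 and Kdr at 3.33 and 1.01.

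All 10 members lie on chromosome 3, where the median log2 change of 451 genes at or above a mean FPKM of 5 was 0.25. S100a1 to S100a9 lie within 185 kb, and S100a11 and S100a10 lie 2.82 Mb further on, 28.8 kb apart. Relative to the chromosome, the median of the members was -0.42. From 500 kb before the first to 500 kb after the last member there were 102 genes with a value, 14 of them S100 genes.

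The neighbours before the cluster had small log2 changes. The 13 genes on that side that reach an FPKM of 5 (Ubap2l, 4933434E20Rik, Tpm3, Rps27, Rab13, Jtb, Slc39a1, Crtc2, Gatad2b, Ints3, Ilf2, Snapin and Chtop) had log2 changes from -0.34 for Snapin to 0.75 for Ilf2, with a median of 0.20. Within the cluster the values ran from -2.01 for S100a4 to 1.65 for S100a7a, and adjacent genes such as S100a13 (-0.32) and S100a14 (0.95) had opposite signs.

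**Figure D2:**
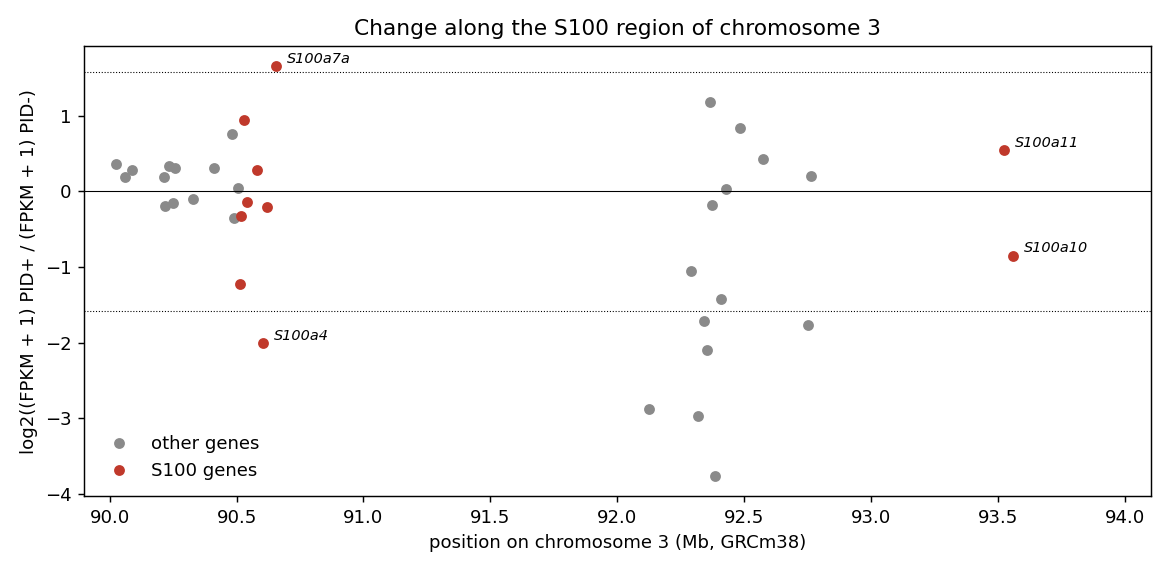
Log2 change of FPKM + 1 (PID+ against PID-) by position on chromosome 3 (Mb, GRCm38) for genes that reach an FPKM of 2 in PID+ or PID- cells; red points are S100 genes, grey points other genes, and dotted lines mark 3-fold. S100a4 (-2.01) lies below and S100a7a (1.65) above the dotted lines, grey points between the S100 genes reach down to -3.76 (Sprr2h), and the neighbours before the cluster lie between -0.34 and 0.75.

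Promoter sequences, from 250 bases before to 50 after the start, were taken from RefSeq (GRCm38.p6) and matched 8 of the 10 members with 9 windows, all but S100a10 and S100a14. Motifs were searched on both strands, and the share of 32851 promoters of the same length that hold each is given beside it. The TATA box letters TATAAA were found in 3 members (13.6% of promoters), and the E-box letters CACCTG in 2 members (20.2%). The AP-1 letters TGANTCA were found in 2 members (7.81%), and the C/EBP letters TTGCNNAA in 1 member (10.8%). Of the Tcf/Lef letters, which share all but the last base, CTTTGAT (3.73% of promoters) and also CTTTGAA (5.14%) were in no window. No match overlapped another. In S100a4 TATAAA begins 31 bases before the start and in S100a8 30 bases before it, whereas in S100a9 it begins at the start itself. S100a11 holds TGAGTCA at 136 and at 38 bases before the start.

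The stretch before the start is shown for S100a4, the member past 3-fold, at chr3:90603520-90603769, and for S100a11, an abundant member whose log2 change was 0.55 (-0.08 under equal Gapdh FPKM), at chr3:93520246-93520495, both on the plus strand with matches in capitals.
S100a4: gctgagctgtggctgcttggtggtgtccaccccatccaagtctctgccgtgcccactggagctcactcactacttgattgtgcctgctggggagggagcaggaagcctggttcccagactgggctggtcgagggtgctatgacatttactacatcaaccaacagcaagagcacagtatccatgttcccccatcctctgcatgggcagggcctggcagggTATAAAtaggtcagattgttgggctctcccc
S100a11: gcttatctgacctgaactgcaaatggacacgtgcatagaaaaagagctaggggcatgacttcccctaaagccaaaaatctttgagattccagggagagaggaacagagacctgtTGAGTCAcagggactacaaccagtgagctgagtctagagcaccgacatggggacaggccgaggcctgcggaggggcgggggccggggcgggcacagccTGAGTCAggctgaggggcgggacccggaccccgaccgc
A match is a description of these letters and names no factor at work in the cells.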

How the data were processed

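RNA-seq libraries were made from poly-A selected RNA of 3 PID+ and 3 PID- samples. The authors removed adapters with CutAdapt, mapped reads to protein coding genes of GRCm38.p3 with TopHat, pooled the reads of each condition and deposited pooled FPKM from CuffDiff with interval bounds. The 7 genes with a status other than OK in either condition were left out. Symbols matched 21734 of 21966 identifiers. Positions came from Gencode M21 (GRCm38). Log2 changes used a pseudocount of 1. The FPKM step of a single read came from genes with 1 transcript: with a length correction of 185 bases, the best of 31 tried in both conditions, 91.3% of low values in PID+ and 91.0% in PID- cells lay within 0.1 of a whole number, against 20% by chance. Reads of a gene were estimated from its longest transcript. The code was run on simulated data in which fold changes were put in without noise. This checks only that the code runs as meant and says nothing on the error of the real values. The members and the 14 gene lists were chosen with earlier results of these data known, and 1 gene of the plasminogen list is not reported here. Named were all members, other S100 genes with an FPKM of at least 1, up to 4 genes per further list with the largest change and the most abundant gene, the 3 nearest genes of the members at the extremes, and neighbours with an FPKM of at least 5. Further genes, such as markers at or near 0, were chosen after their values were seen. Protein sequences were not used here. Alternatives were other pseudocounts, scalings, filters and folds and narrower intervals. Python 3.11.15, numpy 2.4.6, pandas 2.3.3 and matplotlib 3.10.9 were used.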

Additional observations from a re-analysis of the deposited data

How the results depend on the processing

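S100a4 was at least 3-fold lower under each alternative run, but none of them could have undone this call. They push its value down, leave it, hardly move it or use a looser fold. Equal total FPKM, equal Gapdh and the chromosome median only push values down, and the other alternatives cannot turn a sign or hardly scale, so a sign could change only for the 4 members higher in PID+ cells. Of these 12 values 2 changed sign: S100a11 with equal Gapdh (-0.08) and S100a8 with the chromosome median subtracted (-0.03). With equal Gapdh 2 members were lower at least 3-fold (S100a1 with S100a4), and the median of the members was -0.79. Of all genes 76 were higher and 662 lower, against 229 and 377. The median of the 11035 genes was -0.58 there, and relative to it S100a1 was at -1.23, short of 3-fold. The median of the members was -0.27 with equal total FPKM and -0.42 with the chromosome median subtracted. A pseudocount of 0.1 gave 1 member higher, S100a9, for which no fold is read since about 2.05 estimated reads lie behind its PID- value, and 621 genes higher and 795 lower. With a mean FPKM of at least 5, 144 genes were higher and 221 lower, since fewer genes were counted. A fold of 2 gave 2 members lower, and 726 genes higher and 828 lower. With each bound at 0.5 of its deposited distance from the FPKM, 5 members and 3739 genes had intervals apart; among genes with an FPKM of at least 2 these were 4 of 8 members and 10.7% of 11035 genes. Other causes were not tested. Leaving out a replicate was not possible, since each condition has 1 pooled value. No paired analysis was possible because the table holds no value per sample.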

Other observations

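Between the S100 genes at either end of the region lie genes of the cornified envelope, chosen as neighbours with an FPKM of at least 5. Of 12 Sprr2 genes with a value, 8 can reach 3-fold; 4 of these were at least 3-fold lower and none at least 3-fold higher. Since 3 of the 8, with 2 of the 4, reach an FPKM of 2 only through PID- cells, no share is compared. Sprr2h reached 7.68 FPKM with and 116 FPKM without PID (log2 change -3.76) with intervals apart. Sprr2b (0.146 and 7.95), Sprr2e (0.759 and 6.52), Sprr2d (2.80 and 11.5) and Sprr2a3 (2.23 and 5.70) were lower too. Like Prr9, these 4 passed the FPKM of 5 for being named only through PID- cells, so their direction follows from how they were chosen. Sprr2f, chosen after its values were seen, had 2.31 and 0.452. These near-identical genes can share reads. Prr9 had 0.264 and 8.29. Sprr1a, far more abundant, reached 827 FPKM with and 464 FPKM without PID (log2 change 0.83) that became 0.21 under equal Gapdh FPKM. Gm9774 (11.6 and 11.3) and Lce1h (11.6 and 9.96) differed little.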
